A study of Mus musculus with 8 samples.

Results

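The subject is the cell-surface receptors for bone morphogenetic proteins (BMPs), activins and transforming growth factor beta (TGF-beta) in mouse CD4+ T cells. Members were the 9 genes Acvr1, Acvr1b, Acvr2a, Acvr2b, Bmpr1a, Bmpr2, Tgfbr1, Tgfbr2 and Bambi, found by their symbol in the annotation of the Affymetrix mouse array. They were 9 of 18193 genes with a symbol, and 26 of 45101 probe sets (sets of short probes that each report on a transcript). Each gene was read from its brightest probe set, judged by the mean of all 8 arrays, and the other probe sets served as a check. All 9 genes were among the 13983 tested, and 23 of their 26 probe sets passed the filter on low values.

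RNA was taken from primary BALB/c mouse CD4+ T cells in 4 groups of 2 arrays each. Every group was first cultured for 1 h and then kept for another 6 h. The control group received no stimulus and then the solvent DMSO. The dorsomorphin group received no stimulus and then 4 µM dorsomorphin. The stimulated group received antibody to CD3 fixed to the plate together with dissolved antibody to CD28, which engage the T cell receptor complex and its costimulator, and then DMSO. The stimulated and dorsomorphin group received the same antibodies and then 4 µM dorsomorphin. Dorsomorphin is a small molecule that inhibits BMP type I receptors and also the kinase AMPK. Separate mice or cultures are not named for the replicates in the labels, so the p-values speak only of how far these arrays lie apart, and that spread may be technical. With 2 arrays per group, an exact permutation test of a single gene cannot give a two-sided p below 0.333.

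Ligands of this family bind a complex of type II and type I receptors, both of them serine/threonine kinases that span the membrane. The type II receptor phosphorylates the type I receptor, which in turn phosphorylates SMAD proteins. BMP type I receptors act on SMAD1, SMAD5 and SMAD9, and the activin and TGF-beta type I receptors act on SMAD2 and SMAD3. In CD4+ T cells, TGF-beta restrains activation and directs differentiation, including that of regulatory T cells.

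Arrays of 1 group correlated at 0.937 to 0.952 across the tested genes (Pearson's r of log2 signals), and the median signal per array ran from 45.4 to 74.5. The lowest of these medians belonged to stimulated replicate 2, which also held the most values under 1, with 884 against 363 to 583 on the other arrays. The stimulus was visible in Il2, the gene of the growth factor interleukin-2, at log2 12.65 and 14.18 on the stimulated arrays against 4.93 and 6.34 on the control arrays. Of 12 markers of CD4 T cells, 9 were on the array by a single symbol, and all 9 lay above the working floor of log2 5.22 on all 8 arrays. Their summed signal was 80024 to 80290 in control, 26094 to 34858 with dorsomorphin, 61261 to 62029 with stimulation and 36854 to 38291 with both. Of 15 myeloid and dendritic cell markers, all on the array, 11 lay above the floor on every array, with summed signals of 17125 to 19341, 7572 to 8286, 7564 to 12562 and 8925 to 9178 in the same order. Of 11 stromal and endothelial markers, 7 lay below the filter, among them Col1a1, Pdgfra and Cdh5, and the sum was 1867 to 2294 in control and 317 to 1157 in the other groups. B cell markers (8 of 9 on the array) summed to 262 to 681 over all arrays, markers of CD8 T cells and natural killer cells (7 of 8) to 458 to 2034, and erythroid and platelet markers (6 of 8) to 403 to 1262. The CD4 T cell markers did not move alike. With dorsomorphin in unstimulated cells Cd3g went from log2 13.79 and 13.71 to 10.75 and 9.74, and Cd28 from 13.61 and 13.69 to 13.49 and 13.14. In stimulated cells Cd28 was at 12.80 and 12.99 without dorsomorphin and at 13.73 and 13.78 with it. Markers of several cell types thus moved with the groups, and their part in the receptor values was not tested. In these bulk samples, fewer cells of a type, less RNA per cell and changes of single marker genes cannot be told apart.

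Signals below are log2 of the deposited intensity, and a log2 fold is the difference of 2 group means with its standard error (SE). The adjusted p comes from limma over all tested genes, with 0.05 as the threshold. Levels are set side by side within a gene only, since probe sets differ in brightness for reasons of their own.

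Of the type I receptors, Acvr1, which encodes the BMP receptor also called ALK2, was higher with dorsomorphin in both states of the cells. Its signal was 6.58 and 6.57 on the control arrays, 7.66 and 7.63 with dorsomorphin, 6.13 and 6.19 with stimulation, and 7.46 and 7.15 with both. The 4 dorsomorphin arrays lay above the 4 others, with no overlap between any neighbouring groups. Acvr1 rose 2.10-fold with dorsomorphin in unstimulated cells (1.07 ± 0.21 on the log2 scale, with n = 2 in each group and an adjusted p = 0.0320) and 2.21-fold in stimulated cells (1.14 ± 0.21, adjusted p = 0.0177). The change with stimulation alone, -0.41 ± 0.21, did not pass (adjusted p = 0.217). The other 2 probe sets of Acvr1 gave positive but smaller log2 folds with dorsomorphin, 0.89 and 0.15 in unstimulated and 0.66 and 0.25 in stimulated cells, and neither passed on its own.

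Acvr1b, the gene of the activin type I receptor, had its highest values in control cells. The signal was 11.17 on both control arrays, 10.61 and 10.72 with dorsomorphin, 9.73 and 9.64 with stimulation, and 10.54 and 10.39 with both. It fell by 1.49 ± 0.20 log2 units with stimulation (SE, n = 2 per group, adjusted p = 0.0113). In stimulated cells it rose by 0.78 ± 0.20 with dorsomorphin (adjusted p = 0.0426), a step measured from the same 2 stimulated arrays. In unstimulated cells its log2 fold with dorsomorphin was -0.51 ± 0.20 and did not pass (adjusted p = 0.153).

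Bmpr1a encodes the BMP type I receptor ALK3. Its signal was 7.27 and 6.94 in control, 6.81 and 6.91 with dorsomorphin, 6.63 and 6.56 with stimulation, and 7.04 and 7.03 with both. The stimulated arrays were the lowest, and the group with both agents overlapped with control. None of its changes passed: the 95% interval ran from -1.04 to 0.03 for stimulation, from -0.78 to 0.29 for dorsomorphin in unstimulated cells and from -0.10 to 0.97 for dorsomorphin in stimulated cells.

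Tgfbr1, the TGF-beta type I receptor gene, gave the narrowest range of log2 signals of the 9 genes. It was at 11.34 and 11.37 in control, 11.44 and 11.67 with dorsomorphin, 11.46 and 11.73 with stimulation, and 11.37 and 11.52 with both. The control arrays were lowest, and the 3 other groups overlapped with their neighbours in the order. No change passed, with 95% intervals of -0.31 to 0.78 for stimulation and -0.69 to 0.40 for dorsomorphin in stimulated cells.

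Among type II receptors, Tgfbr2, which binds TGF-beta first and recruits Tgfbr1, was lower in all 3 other groups than in control. Its signal was 13.46 and 13.39 in control, 12.75 and 12.56 with dorsomorphin, 12.04 and 11.47 with stimulation, and 12.72 and 12.74 with both. The stimulated arrays were lowest, and the groups with dorsomorphin and with both agents overlapped. Tgfbr2 fell by 1.67 ± 0.26 with stimulation (SE, n = 2 per group, adjusted p = 0.0135), and in stimulated cells it rose by 0.97 ± 0.26 with dorsomorphin (adjusted p = 0.0468). The difference with dorsomorphin in unstimulated cells was -0.77 ± 0.26 (adjusted p = 0.105). The 2 subunits of the TGF-beta receptor therefore did not run in parallel over the 8 arrays (Pearson's r = -0.76 as a description), whereas Tgfbr2 and Acvr1b did (r = 0.95). These values share the same 4 groups and arrays.

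Acvr2a encodes a type II receptor for activins that also takes up BMPs. Its signal was 8.57 and 8.54 in control, 9.12 and 8.93 with dorsomorphin, 8.21 and 7.87 with stimulation, and 8.97 and 9.16 with both. Both dorsomorphin groups lay above control and overlapped with each other, and the stimulated group lay below control. In stimulated cells Acvr2a rose 2.03-fold with dorsomorphin (1.02 ± 0.23, adjusted p = 0.0292). The log2 folds of -0.52 ± 0.23 for stimulation (adjusted p = 0.161) and 0.47 ± 0.23 for dorsomorphin in unstimulated cells (adjusted p = 0.226) did not pass.

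The related gene Acvr2b was the dimmest member. Its signal was 5.89 and 5.53 in control, 6.61 and 5.24 with dorsomorphin, 3.65 and 1.73 with stimulation, and 5.44 and 5.77 with both. Both stimulated arrays lay under the floor of log2 5.22, and the other 6 lay above it, at 6.61 or less. Acvr2b fell with stimulation (log2 fold -3.02 ± 0.73, adjusted p = 0.0344) and rose with dorsomorphin in stimulated cells (2.91 ± 0.73, adjusted p = 0.0386). Since the dim side has only a bound, these are differences of at least 1.41-fold and at least 1.30-fold, and with values under the floor set to it neither passed.

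Bmpr2, the BMP type II receptor gene, had overlapping neighbours at every step of its order. The signal was 9.42 and 9.79 in control, 9.44 and 9.30 with dorsomorphin, 9.32 and 9.12 with stimulation, and 9.35 and 9.56 with both. No change passed, with 95% intervals of -0.97 to 0.20 for stimulation, -0.82 to 0.35 for dorsomorphin in unstimulated cells and -0.36 to 0.82 for dorsomorphin in stimulated cells.

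Bambi encodes a membrane protein that resembles a type I receptor but lacks the kinase, and so acts as a decoy. It is also known as a target gene of BMP and TGF-beta signals. Its 1 probe set gave 6.52 and 6.73 in control, 7.57 and 8.11 with dorsomorphin, 6.34 and 6.23 with stimulation, and 7.65 and 7.69 with both. As for Acvr1, all 4 dorsomorphin arrays lay above the 4 others. Bambi rose 2.32-fold with dorsomorphin in unstimulated cells (1.21 ± 0.26, adjusted p = 0.0365) and 2.61-fold in stimulated cells (1.39 ± 0.26, adjusted p = 0.0172). The change with stimulation alone was -0.34 ± 0.26 (adjusted p = 0.384).

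**Figure D1:**
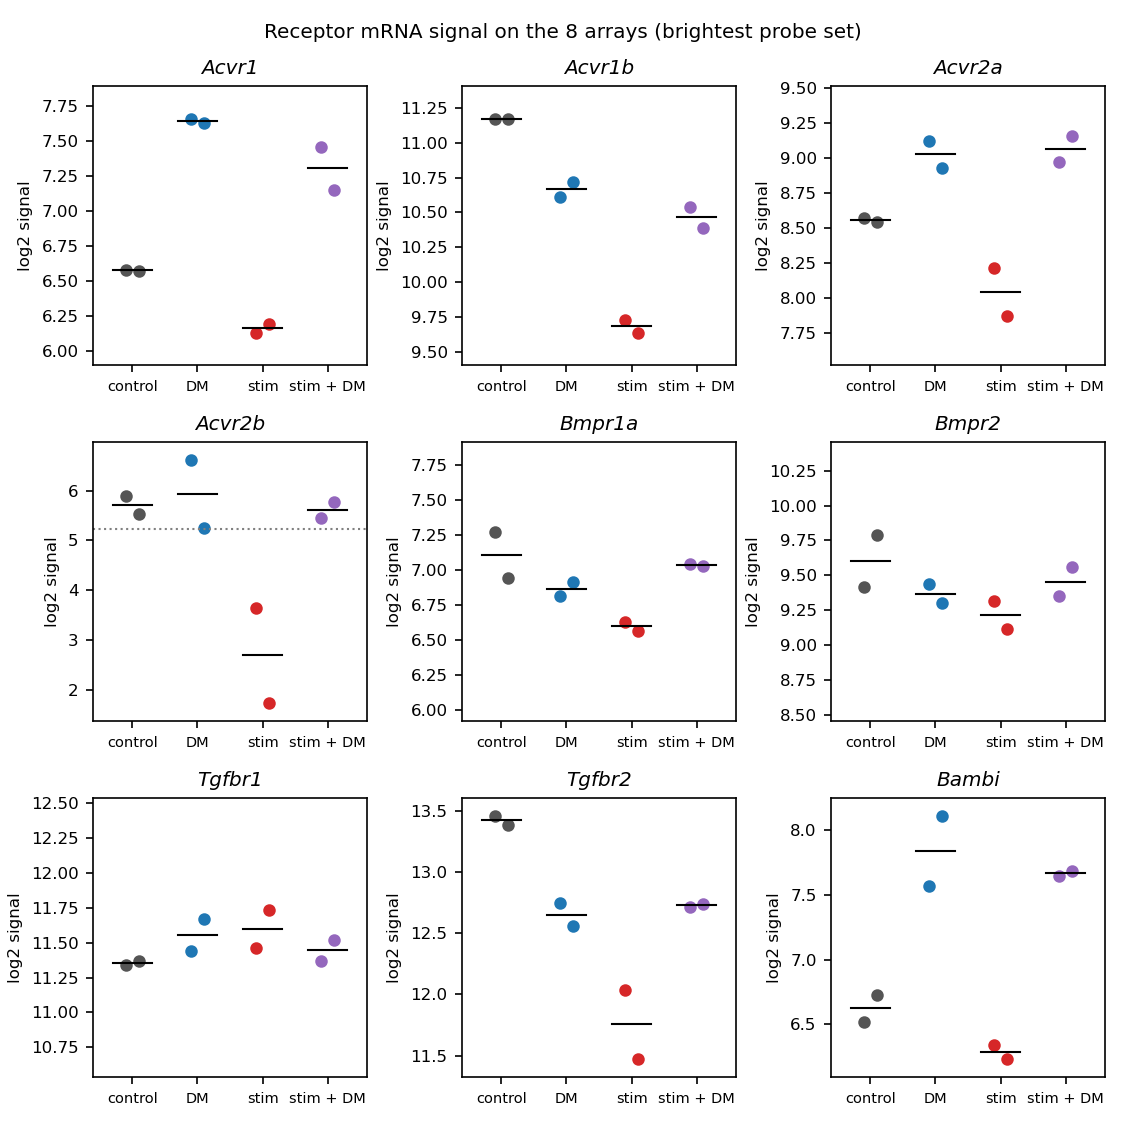
log2 signal of the 9 genes (vertical axes, each panel with its own range) in the control, dorsomorphin (DM), stimulated (stim) and stimulated plus dorsomorphin groups; points are the 2 arrays of a group, bars their mean, and the dotted line marks the floor of log2 5.22. The 4 dorsomorphin arrays of Acvr1 and Bambi lie above the 4 others, and the mean of the stimulated group is the lowest of the 4 for every gene except Tgfbr1, with arrays that overlap the next group for Bmpr2.

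By the brightest probe set of each gene, the members thus fell into patterns that can be read over the groups. Acvr1, Acvr2a and Bambi were higher than control in both dorsomorphin groups and correlated at 0.89 to 0.95 with each other over the 8 arrays. Acvr1b and Tgfbr2 were highest in control and lowest with stimulation. The promoters of 1 pair from each pattern are shown for their letters, as the 250 bases before the RefSeq transcription start (GRCm38.p6), with capitals for CAGAC or its complement GTCTG, the short SMAD-binding box. Bambi is left out here.
Acvr1 (chr2:58566829-58567078, - strand): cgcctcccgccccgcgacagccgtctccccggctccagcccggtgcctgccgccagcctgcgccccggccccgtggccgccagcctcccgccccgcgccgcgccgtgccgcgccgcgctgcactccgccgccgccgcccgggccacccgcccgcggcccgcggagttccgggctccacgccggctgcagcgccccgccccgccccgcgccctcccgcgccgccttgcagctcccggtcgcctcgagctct
Acvr2a (chr2:48813859-48814108, + strand): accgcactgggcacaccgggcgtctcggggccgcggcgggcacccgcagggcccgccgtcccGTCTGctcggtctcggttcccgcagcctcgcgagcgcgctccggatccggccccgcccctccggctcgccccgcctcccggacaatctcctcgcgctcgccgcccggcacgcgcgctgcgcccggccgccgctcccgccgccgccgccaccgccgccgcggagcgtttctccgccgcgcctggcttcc
Acvr1b (chr15:101173822-101174071, + strand): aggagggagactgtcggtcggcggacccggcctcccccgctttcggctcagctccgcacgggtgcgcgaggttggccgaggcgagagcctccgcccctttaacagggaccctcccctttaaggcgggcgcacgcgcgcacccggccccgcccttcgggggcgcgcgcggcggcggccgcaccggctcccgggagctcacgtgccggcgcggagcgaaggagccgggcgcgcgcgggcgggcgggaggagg
Tgfbr2 (chr9:116175364-116175613, - strand): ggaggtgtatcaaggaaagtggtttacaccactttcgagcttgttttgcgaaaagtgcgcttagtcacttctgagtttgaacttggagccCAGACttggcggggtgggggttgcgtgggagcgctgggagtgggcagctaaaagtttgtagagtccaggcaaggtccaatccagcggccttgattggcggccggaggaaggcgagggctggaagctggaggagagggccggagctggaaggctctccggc
The promoters of Acvr1, Acvr2a and Acvr1b were made of G and C at 85.6%, 82.0% and 78.8%, against a median of 52.4% over 32817 such windows. They held 46, 49 and 42 CpG pairs, where the median was 6. That of Tgfbr2 was nearer to the rest, with 58.4% G and C and 12 CpG pairs.

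The SMAD box CAGAC, searched on both strands, was in the windows of Acvr2a and Tgfbr2 once each and not in those of Acvr1 and Acvr1b, and 42.2% of all windows held it. The GC-rich SMAD element GGCGCC was in none of the 4 and in 9.59% of all windows. The GC box GGGCGG occurred 6 times in the Acvr1 window, 4 times in that of Acvr1b, 2 times in that of Acvr2a and 0 times in that of Tgfbr2, and was in 32.7% of all windows. The AP-1 site TGANTCA (6.75% of windows), the forkhead site GTAAACA (3.16%) and the TATA box TATAAA (12.4%) were in none of the 4. GGGCGG and GGCGCC can share at most 2 bases. Acvr1 and Acvr2a both held the GC box, and of Acvr1b and Tgfbr2 only Acvr1b did.

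By comparison, stimulation without dorsomorphin, which asks how receptor mRNA changes as T cells are activated, lowered 3 of the 9 genes: Acvr1b, Acvr2b and Tgfbr2. No member rose, and 6 did not pass. Of all tested genes 14.4% fell and 8.98% rose. The median log2 fold was -0.51 over the members and -0.27 over all genes. In 8 of the 9 members both stimulated arrays lay below both control arrays, which was so for 42.0% of all tested genes, and in 1, Tgfbr1, both lay above (25.1% of all genes). With each array left out in turn, the log2 fold ran from -1.53 to -1.44 for Acvr1b, from -3.98 to -2.06 for Acvr2b and from -1.95 to -1.39 for Tgfbr2. Fewer of all genes passed in each of these fits, and fewer members in some. Each leaves 1 array in a group.

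Dorsomorphin in unstimulated cells, which asks for the effect of the inhibitor at rest, raised 2 of the 9 members, Acvr1 and Bambi, and lowered 0. Of all tested genes 1.92% rose and 11.1% fell, and the median log2 fold was 0.20 over the members and -0.24 over all genes. The arrays of the groups did not overlap for 7 members, 4 higher and 3 lower, against 23.2% and 42.3% of all genes. Tgfbr2, lower in the main analysis without passing, was past the threshold as a fall with the 60th percentile filter, and likewise when limma used a robust variance trend. No member passed with median centring of the arrays, with no filter or with only the 4 arrays of this comparison in the fit. In these fits 154 of 13983, 106 of 18193 and 67 of 13983 genes rose, against 268 in the main fit. Leaving out 1 array left 0 members (control replicate 1, control replicate 2 or dorsomorphin replicate 2) or 1 member (Bambi without dorsomorphin replicate 1, Acvr1 without any 1 of the 4 stimulated arrays).

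In stimulated cells dorsomorphin raised 6 of the 9 members: Acvr1, Acvr1b, Acvr2a, Acvr2b, Tgfbr2 and Bambi. None fell, and Bmpr1a, Bmpr2 and Tgfbr1 did not pass. Of all tested genes 9.71% rose and 12.4% fell. The median log2 fold was 0.97 over the members and 0.07 over all genes, and 8 members had arrays with no overlap, all higher, against 31.4% of all genes. This comparison and that of stimulation share the 2 stimulated arrays, so a low value there gives both a fall with stimulation and a rise with dorsomorphin. The count was 1 with median centring, 3 with cyclic loess, 2 with no filter and 0 with only the 4 arrays compared. Of all genes 689 of 13983, 1141 of 13983, 843 of 18193 and 0 of 13983 rose in these fits, against 1358 in the main fit. With each array left out in turn, the log2 fold ran from 0.99 to 1.30 for Acvr1, 0.71 to 0.85 for Acvr1b and 0.85 to 1.20 for Acvr2a. It ran from 1.95 to 3.87 for Acvr2b, 0.69 to 1.26 for Tgfbr2 and 1.33 to 1.44 for Bambi. Fewer members and fewer of all genes passed in each of these fits, which leave 1 array in a group.

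Stimulation in the presence of dorsomorphin changed 0 of the 9 members and 0% of all tested genes by limma. At an unadjusted p under 0.05 there were 0 members and 539 genes, and limma with a variance trend and robust fit also gave 0 genes adjusted (463 unadjusted), while the 60th percentile filter gave 2 genes and 0 members. The log2 folds of the members ran from -0.34 for Acvr1 to 0.17 for Bmpr1a. Acvr1b, at -0.20 ± 0.20, and Tgfbr2, at 0.08 ± 0.26, had 95% intervals of -0.70 to 0.29 and -0.56 to 0.72. Their log2 folds for stimulation without dorsomorphin were -1.49 and -1.67. The difference between these comparisons is the interaction given below, which passed for neither gene by limma (adjusted p = 0.0790 for Acvr1b and 0.0748 for Tgfbr2). Acvr2b had an interval of -2.11 to 1.46.

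With both agents against control, 0 of the 9 members passed by limma, while 0.915% of all tested genes rose and 6.31% fell. An unadjusted p under 0.05 was reached by 4 of the 9 members and by 3691 of the 13983 genes. Bambi had the largest log2 fold, at 1.04 ± 0.26 (adjusted p = 0.0665), followed by Acvr1 at 0.73 ± 0.21 (adjusted p = 0.0974), Acvr1b at -0.71 ± 0.20 (adjusted p = 0.0917) and Tgfbr2 at -0.70 ± 0.26 (adjusted p = 0.160). Acvr1, Acvr1b and Bambi passed when values under the floor were set to it or with the 60th percentile as the filter. These settings called 2202 of 13983 genes and 2075 of 9640 genes, against 1010 in the main fit.

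The interaction, which asks whether dorsomorphin acts differently in stimulated and unstimulated cells, was past the threshold for 0 of the 9 members and 0.0858% of all genes. An unadjusted p under 0.05 was reached by 3 of the 9 members and by 3687 of the 13983 genes. The difference was 1.75 ± 0.37 for Tgfbr2 (adjusted p = 0.0748), 1.29 ± 0.29 for Acvr1b (adjusted p = 0.0790) and 2.70 ± 1.03 for Acvr2b (adjusted p = 0.169). For Acvr1 it was 0.07 ± 0.30 and for Bambi 0.17 ± 0.36, with 95% intervals of -0.67 to 0.82 and -0.72 to 1.07. Tgfbr2 and Acvr1b passed in 4 of the alternative fits, in which far more genes passed than the 12 of the main fit. Of 13983 genes, 1709 passed with values set to the floor, 2079 with log2(value + 50) and 2036 with the trend and robust fit. With the 60th percentile filter 1867 of 9640 genes passed.

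**Figure D2:**
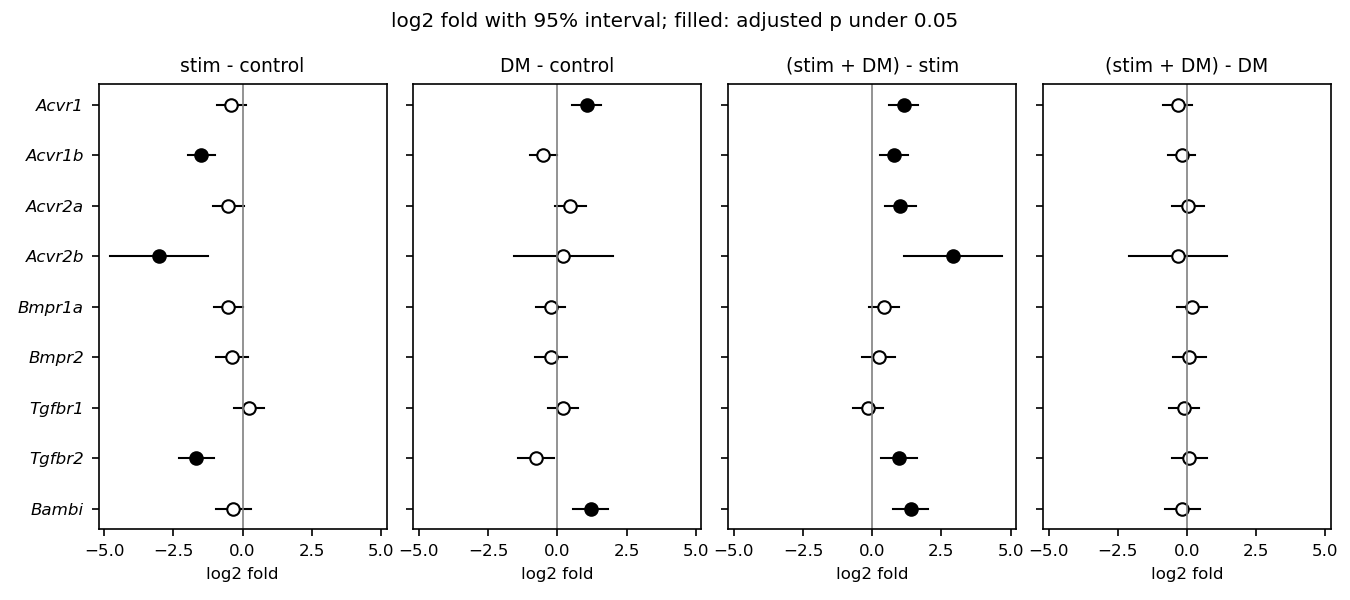
log2 fold (horizontal axes) of each gene in the 4 comparisons, with the 95% interval as a line; filled circles are past an adjusted p of 0.05. Filled circles number 3 for stimulation, 2 for dorsomorphin in unstimulated cells, 6 for dorsomorphin in stimulated cells and 0 for stimulation with dorsomorphin present.

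**Figure D3:**
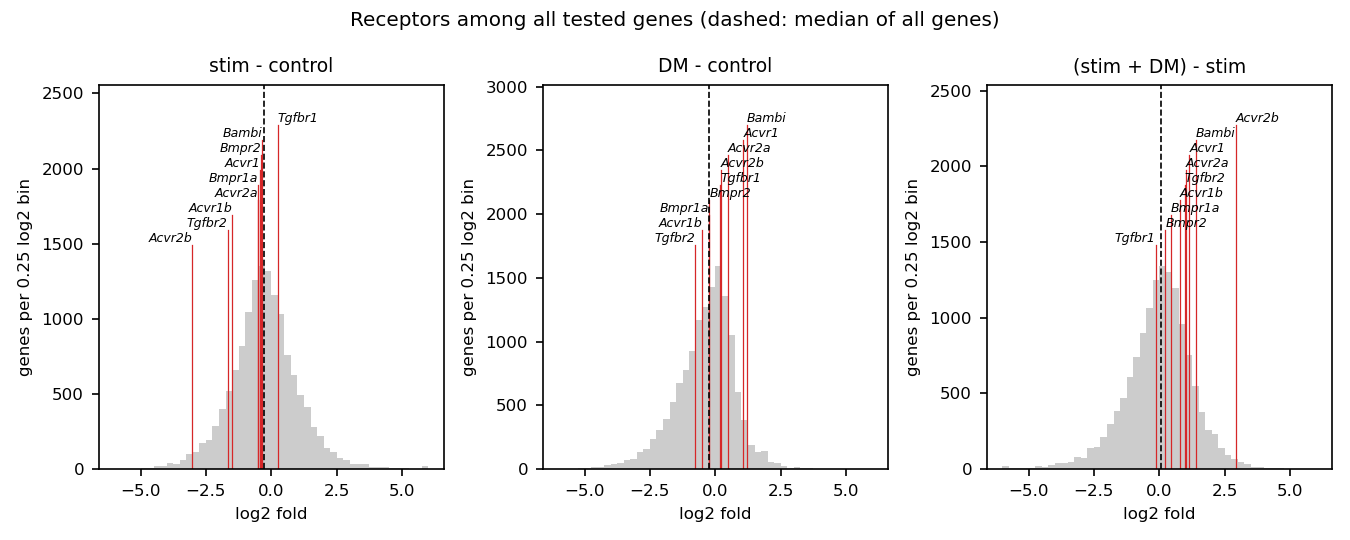
Histograms of the log2 folds of all 13983 tested genes in 3 comparisons (genes per bin of 0.25 on the vertical axis, values beyond 6 put in the outer bins), with the 9 receptors as red lines and the median of all genes as a dashed line. In stimulated cells (right) 8 of the 9 lines lie on the positive side of 0, and Tgfbr1 is at -0.15.

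The other probe sets of the members did not all follow the brightest one. Besides the brightest sets, 14 passed the filter, which asks for 2 arrays above the floor. Of these, 7 passed it only through dorsomorphin arrays, which favoured sets that were higher there, and their values are given as a description with no test. The 4 that exceeded the floor on all 8 arrays had positive log2 folds with dorsomorphin: 0.89 and 0.15 for Acvr1, 2.36 for Acvr2a and 0.90 for Bmpr2 in unstimulated cells, and 0.66, 0.25, 1.41 and 0.61 in stimulated cells. Of all 11903 other probe sets past the filter, 51.4% had a positive log2 fold in unstimulated cells and 59.3% in stimulated cells. These shares are not limited to sets above the floor on all 8 arrays. In the fit over all probe sets, the brightest sets of Acvr1b and Tgfbr2 no longer passed with dorsomorphin in stimulated cells (adjusted p = 0.0543 and 0.0542). The 1 other set of Acvr2b past the filter had log2 folds of -0.09 and -1.21, below 0 where the brightest set had 0.21 and 2.91. It was above the floor on 3 arrays only, and neither fold passed by limma (adjusted p = 0.968 and 0.470). A further Acvr2b set, above the floor on 0 arrays and not tested, had 1.89 and 1.18.

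Tgfbr2 had a second probe set, 1425444_a_at, with 7.84 and 7.47 in control, 10.18 and 10.17 with dorsomorphin, 6.99 and 3.76 with stimulation, and 10.13 and 10.22 with both. All 4 dorsomorphin arrays thus lay above control here, while the brightest probe set, 1426397_at, was lower in those arrays than in control. In stimulated cells 1425444_a_at rose by 4.80 log2 units (adjusted p = 0.0222 over all probe sets), where 12.5% of the probe sets other than a gene's brightest rose. The log2 fold of 2.52 in unstimulated cells did not pass (adjusted p = 0.145). The rise in stimulated cells includes the value of 3.76, under the floor, in stimulated replicate 2.

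For Acvr2a, the probe set past the threshold in unstimulated cells was the dimmer one. The probe set 1451004_at gave 6.50 and 5.51 in control, 8.22 and 8.53 with dorsomorphin, 6.70 and 6.52 with stimulation, and 7.71 and 8.34 with both. It rose by 2.36 with dorsomorphin in unstimulated cells (adjusted p = 0.0253), where 4.21% of such probe sets of all genes rose. The brighter 1437382_at was also higher there on both arrays, at 0.47, without passing, and the difference between the sets was not tested. With both agents against control 1451004_at rose by 2.02 (adjusted p = 0.0474), where 2.60% of such probe sets rose.

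Several dim sets are described only, since they were tested through their dorsomorphin arrays. The Acvr1b set 1422098_at gave 4.21 and 4.20 in control, 6.20 and 6.00 with dorsomorphin, 3.11 and 3.28 with stimulation, and 6.22 and 5.21 with both. The Bmpr2 set 1441652_at was at 3.58 and 4.52 in control, 6.74 and 6.70 with dorsomorphin, 6.02 and 4.32 with stimulation, and 7.11 and 6.53 with both. Bmpr1a had the most probe sets, 6, and its set 1425494_s_at was at 1.74 and 1.63 in control, 5.96 and 6.59 with dorsomorphin, 0.69 and 4.63 with stimulation, and 5.72 and 6.35 with both. In unstimulated cells the brightest sets of these 3 genes had log2 folds of -0.51, -0.23 and -0.24. The suffix _s marks probes that can match transcripts of more than 1 gene, and _a marks probes that match several transcripts of 1 gene. Where the probe sets lie in the transcripts was not analysed here.

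**Figure D4:**
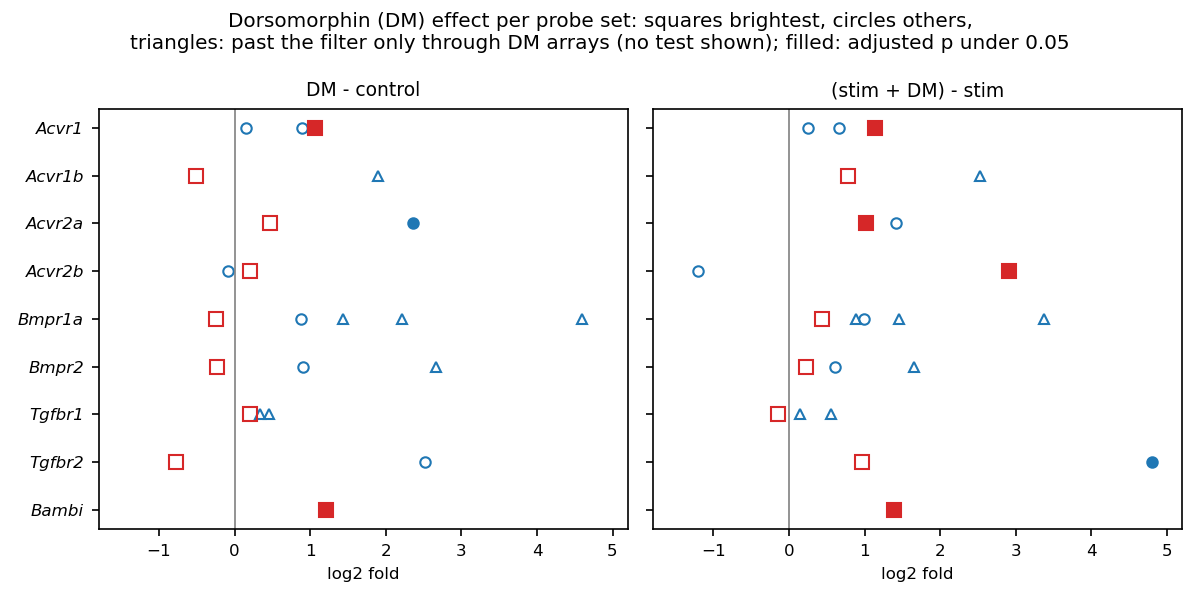
log2 fold with dorsomorphin (horizontal axes) for each of the 23 probe sets that passed the filter, in unstimulated (left) and stimulated cells (right); red squares are the brightest probe set of a gene, blue circles and triangles the others, filled symbols are past an adjusted p of 0.05, and triangles are the 7 sets that passed the filter only through dorsomorphin arrays, shown with no test. In unstimulated cells the squares of Acvr1b, Bmpr1a, Bmpr2 and Tgfbr2 lie below 0 and their other symbols above it. The only other symbol of Acvr1b and some of those of Bmpr1a and Bmpr2 are triangles, whose filter favoured higher values with dorsomorphin.

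Of the family's 9 other listed receptors and coreceptors, 7 were tested, while Acvrl1 and Bmpr1b, the remaining BMP type I receptors, lay below the filter. With stimulation 1 of the 7 fell, the TGF-beta coreceptor gene Tgfbr3, whose signal went from 11.44 and 11.60 in control to 8.97 and 8.10 (log2 fold -2.99 ± 0.37, adjusted p = 0.00977). In stimulated cells 2 of the 7 rose with dorsomorphin, Tgfbr3 by 2.49 ± 0.37 (adjusted p = 0.0102) and the BMP coreceptor gene Rgmb by 2.61 ± 0.69 (adjusted p = 0.0443). With dorsomorphin in unstimulated cells 1 of the 7 fell, Amhr2, the receptor of anti-Müllerian hormone (adjusted p = 0.0188), from 6.32 and 6.51 to 3.89 and 3.04, both under the floor. Like Tgfbr2, Tgfbr3 had its lowest values on the 2 stimulated arrays. Of all tested genes 14.4% fell with stimulation, 9.71% rose with dorsomorphin in stimulated cells and 11.1% fell with it in unstimulated cells.

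Of the ligands upstream of the receptors, 13 of 27 BMP and activin genes were tested and 0 passed by limma in any of the 6 comparisons, and 9 of those on the array were below the filter, among them Bmp2, Bmp4 and Bmp6. Of 12 genes of TGF-beta and its activation 7 were tested. With stimulation 2 of them rose, the integrin genes Itgb8 (1.94 ± 0.44, adjusted p = 0.0300) and Itgav (1.57 ± 0.36, adjusted p = 0.0295), whose products release active TGF-beta, and in stimulated cells Itgav fell by 2.13 ± 0.36 with dorsomorphin. Tgfb1 itself did not pass, with 0.49 ± 0.43 for stimulation. Of 14 extracellular antagonists 7 were tested, and 1 of them, Dand5, fell with stimulation (adjusted p = 0.0341), with dorsomorphin in unstimulated cells (adjusted p = 0.0140) and with both (adjusted p = 0.0212), 3 comparisons that share the control arrays. Its signal was 7.21 and 7.96 in control and 5.55 and 4.24 with stimulation, and all 4 dorsomorphin arrays were under the floor. Of all tested genes 8.98% rose and 14.4% fell with stimulation. With dorsomorphin 11.1% fell in unstimulated and 12.4% in stimulated cells, and 6.31% fell with both agents against control.

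Downstream of the receptors, 3 of 7 tested SMAD genes fell with stimulation: Smad7, an inhibitor that targets the receptors (-2.08 ± 0.44), Smad4, the common partner (-1.86 ± 0.28), and Smad1 (-0.95 ± 0.20). In stimulated cells 2 of the 7 rose with dorsomorphin, Smad4 by 1.92 ± 0.28 and Smad7 by 1.62 ± 0.44 (adjusted p = 0.0488), and in unstimulated cells 0 passed. Of 24 regulators of receptors and SMADs inside the cell, 4 rose and 5 fell with stimulation, and in stimulated cells 9 rose and 3 fell with dorsomorphin. Those with the largest changes by dorsomorphin in stimulated cells were the ubiquitin ligase genes Smurf1 (2.62 ± 0.36) and Nedd4l (1.50 ± 0.24), whose products mark the receptors for breakdown, the SMAD repressor gene Ski (2.01 ± 0.26) and the kinase gene Limk1 (-1.68 ± 0.32). With stimulation alone the largest were Nedd4l (-2.37 ± 0.24), Smurf1 (-2.03 ± 0.36), Ski (-1.78 ± 0.26) and the repressor gene Tgif2 (1.66 ± 0.29). In unstimulated cells 1 of the 24 rose with dorsomorphin, Xiap (0.88 ± 0.20), and 1 fell, Limk1 (-1.61 ± 0.32). Of all tested genes 8.98% rose and 14.4% fell with stimulation. With dorsomorphin 1.92% rose and 11.1% fell in unstimulated cells, and 9.71% rose and 12.4% fell in stimulated cells.

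Of 12 BMP-SMAD target genes 9 were tested, and 1 fell with dorsomorphin in each state of the cells while 8 did not pass. Of all tested genes 11.1% fell in unstimulated and 12.4% in stimulated cells, so 1 of 9 lies near the share of all genes. Id3, an inhibitor of E proteins, was at 9.22 and 9.10 in control and 5.99 and 6.69 with dorsomorphin, and its relative Id1 at 7.91 and 7.88 with stimulation and 4.95 and 5.82 with both, of which the first is under the floor. Id3 fell by 2.82 ± 0.33 in unstimulated cells (adjusted p = 0.0121) and Id1 by 2.51 ± 0.51 in stimulated cells (adjusted p = 0.0226), while Id2 had log2 folds of -1.16 ± 0.33 and 0.61 ± 0.33 that did not pass. Over the 9 tested targets the median log2 fold with dorsomorphin was -0.81 in unstimulated cells and 0.61 in stimulated cells, where the 7 targets other than Id1 and Id3 had positive log2 folds that did not pass. Of 10 tested TGF-beta target genes of T cells, Itgae fell with dorsomorphin in unstimulated cells (-2.97 ± 0.32) and Ski rose in stimulated cells, and the other 9 in each comparison did not pass. Of all tested genes 9.71% rose in stimulated cells.

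The genes most like each member over the 8 arrays were found by Pearson's r among 12965 tested genes with a name other than a clone's. These values are a description over 8 arrays in 4 groups, and the highest of so many r values are high in any case. Acvr1 was most like Prpf39 (0.992), Hnrnpul2 (0.991) and Ddx42 (0.991), genes of RNA-binding and splicing proteins. Acvr1b was most like Stk4 (0.993), Il16 (0.989) and Lef1 (0.988), and Tgfbr2 like Rtl8c, Mettl7a1 and Mpp1 (0.991 each). Bambi was nearest to Nmt2 (0.994), Tgoln1 (0.992) and Vps37c (0.992), Acvr2a to Dpf2 (0.987), Scarb2 (0.987) and Mtch1 (0.986), and Acvr2b to Cmah (0.982), Pimreg (0.979) and Fbxo32 (0.977). The 3 members without a call had lower values, up to 0.972 for Bmpr1a with Lncppara, 0.950 for Tgfbr1 with Mex3c and 0.924 for Bmpr2 with Zkscan6.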

How the data were processed

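Each deposited value is a linear intensity of 1 probe set on 1 array. Per the submitters' processing notes RMA and affy were used, with no version named. RMA gives log2 values, and these are linear: after trimming 2% at each end the mean was 500 on every array, and values went down to 0.0605. No detection calls were used. From these values log2 was taken with no further normalization. Of the probe sets, 34945 had 1 symbol in the platform annotation, 932 several and 9160 none, and 64 were controls. Genes were tested where that brightest set was above a floor, the 40th percentile of all deposited values (signal 37.3, log2 5.22) on at least 2 arrays. For a group with neither array above this floor a fold is a bound, set from the brighter group's mean and from the dim arrays, each raised to the floor where below it.

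limma 3.58.1 (R 4.3.3; lmFit and eBayes with neither trend nor robust option, 4 residual and 1.90 prior degrees of freedom) was fitted once to all 8 arrays, with 6 contrasts. Two-sided p-values were adjusted after Benjamini and Hochberg over all tested genes, or over all tested probe sets where these were fitted singly. The members and lists were chosen with earlier results of these data known. All members are named, and of each list up to 4 genes past the threshold with the largest log2 fold, with Id1, Id2, Id3, Smad7, the 3 genes most like each member and Il2 named in any case. The fit was tested on data simulated from these genes, with 200 of 13983 genes changed, fewer than passed here in most contrasts. Over the 6 contrasts it recovered 0% to 2.2% of 2-fold changes and 12.4% to 40.4% of 4-fold changes. A change that did not pass is therefore not shown to be absent. Promoters came from RefSeq (GRCm38.p6), matched by symbol for 8 members. Alternatives covered scaling, low values, filters, probe sets, the variance model, the replicate number and each array left out.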

Additional observations from a re-analysis of the deposited data

Results flagged for a closer look

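In the brightest probe sets of 3 members both dorsomorphin arrays lay below both control arrays in unstimulated cells and above both stimulated arrays in stimulated cells. Of all tested genes 42.3% showed the first and 31.4% the second, and the share with both was not counted. Other sets had positive log2 folds in unstimulated cells, 2.52 for Tgfbr2 (1425444_a_at) and 0.88 for Bmpr1a (1425491_at). The other set of Acvr1b and the rest of Bmpr1a past the filter passed it only through dorsomorphin arrays. For Tgfbr2 the effect of dorsomorphin in stimulated minus unstimulated cells was 1.75 log2 units, for Acvr1b 1.29 and for Bmpr1a 0.68. The interaction term of limma tested this difference and passed for none of them (adjusted p = 0.0748, 0.0790 and 0.227). Median centring and cyclic loess also left all 3 short of the threshold. With log2(value + 50) Tgfbr2 and Acvr1b passed, among 2079 of 13983 genes, against 12 in the main fit. The summed signal of the CD4 T cell markers was lower with dorsomorphin in both states of the cells. It was 80024 to 80290 in control and 26094 to 34858 with dorsomorphin, 61261 to 62029 with stimulation and 36854 to 38291 with both. Its part in these values was not tested.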

How the results depend on the processing

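The number of members past the threshold moved with the processing. No called change reversed direction, but other filters, variance models or only the arrays compared leave the log2 fold as it was. Its sign could not change there. With every probe set on its own, the sign was followed for the brightest set only. Acvr1b and Bmpr2 then rose in unstimulated cells through other sets, while their brightest sets had log2 folds of -0.51 and -0.23. For dorsomorphin in unstimulated cells (2 members) the count was 0 with median centring, with no filter or with only the arrays of the groups compared, 1 with probe sets averaged per gene and 5 with every probe set on its own, of which Acvr1b and Bmpr2 count through sets that passed the filter only through dorsomorphin arrays. It was 3 with the 60th percentile filter and 2 with the trend and robust fit, each with Tgfbr2 as 1 fall. Of all genes 154 rose with median centring, 106 with no filter and 67 with only the arrays compared, against 268 in the main fit. For dorsomorphin in stimulated cells (6) the count of members was 1 with median centring, 3 with cyclic loess and 2 with no filter. It was 0 with only the arrays compared, where 0 of all tested genes passed. With both agents against control (0) it was 3 with values under the floor set to it or with the 60th percentile filter, and 1 with every probe set on its own or with a variance trend and robust fit. For the interaction (0) it was 2 with values set to the floor, with log2(value + 50), with the 60th percentile filter or with the trend and robust fit. Each of these fits called 1709 to 2079 of all tested genes, against 12 in the main fit. Stimulation without dorsomorphin (3) gave 2 or 3 in these settings. Leaving out 1 array gave 0 to 3 members for stimulation, 0 to 1 for dorsomorphin in unstimulated and 0 to 4 in stimulated cells, 0 for stimulation with dorsomorphin and for both agents, and 0 to 1 for the interaction; the lone array left in a group is then assumed to vary like the others. Of 1065 single-gene values under alternatives, 92 lost and 19 gained a call, and 57 changed sign where neither fit called the gene. Acvr2b could not be tested with the 60th percentile filter. Median centring moved the median of all genes from -0.27 to 0.08 for stimulation and from 0.07 to -0.18 for dorsomorphin in stimulated cells, and the genes called from 1256 higher and 2013 lower to 1001 and 1040, and from 1358 and 1738 to 689 and 1520; cyclic loess gave 1594 and 1601 for stimulation. A replicate block changed no count of members (3, 2, 6, 0, 0 and 0), and the labels do not say what the replicate number marks; deviations of same-numbered arrays correlated at 0.07 to 0.18 between groups. Dim probe sets limit Acvr2b most, with a floor taken from the values and no detection calls.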
